A study of Mus musculus with 62 samples.

Results

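The genes of the mitochondrial genome were followed in mouse gastrocnemius muscle while a melanoma-induced wasting syndrome developed. The members are the rows of the deposited expression table whose symbol starts with mt-, which gave 37 of 47643 symbols: 13 protein genes, 2 ribosomal RNA genes and 22 transfer RNA genes. All 13 protein genes were above 0 in all 62 libraries and passed the filter of at least 1 TPM in at least 5 libraries. TPM is the number of reads of a gene divided by its transcript length, scaled to the same total in each library. Both rRNA genes and all 22 tRNA genes were listed at 0 in every library, so every measured value below belongs to the 13 protein genes. All 353 rRNA, 1382 snRNA, 1439 snoRNA and 2146 miRNA symbols of the table were at 0 as well, so these zeros do not show that the RNAs were absent from muscle.

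The study injected female mice, 2 months old, with melanoma cells that cause cachexia (CAC), with melanoma cells that do not (NCAC), or mock injected them (Con), and took muscle 2, 4, 6 and 8 weeks later. Each group holds 5 libraries, except CAC at 8 weeks with 7. The labels disagree on the host: the sample labels give the strain C57BL6/J and the design text NCI Ath/nude mice. The sources used here do not name the melanoma lines, and whatever else differs between the 2 kinds of cells cannot be told apart from their cachectic effect.

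Mammalian mitochondrial DNA is a small circle that is read from both strands into long precursor RNAs. The tRNAs lie between most of the protein genes, and cutting them out releases the individual mRNAs. All the proteins it encodes are core subunits of the respiratory chain and of ATP synthase, and each works in a complex whose remaining subunits come from nuclear genes. Muscle fibres are rich in mitochondria, so these mRNAs take up a large part of a muscle mRNA library.

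The compact layout matters for reading the values. According to the GENCODE M21 annotation (GRCm38, the assembly also called mm10), 12 of the 13 protein genes lie on the + strand, and mt-Nd6 alone lies on the other. mt-Atp8 and mt-Atp6, which encode subunits of ATP synthase, share 43 bases in different reading frames. mt-Nd4l and mt-Nd4 share 7 bases, and mt-Nd5 and mt-Nd6 share 14 bases on opposite strands. Capitals mark these shared bases in the first 5 sequences, shown because mt-Atp8 and mt-Nd6 stood out among the members. In the last 4 sequences capitals mark the final codon as far as the gene holds it: mt-Co1 carries a complete stop codon, while 3 members, mt-Co3, mt-Nd4 and mt-Cytb, end in a lone T. Such ends are known to become stop codons when the poly(A) tail is added, and poly(A) selection is the step by which the libraries were made. Each sequence is given 5′ to 3′ on the gene's own strand.
mt-Atp8, whole gene, chrM:7766-7969, + strand: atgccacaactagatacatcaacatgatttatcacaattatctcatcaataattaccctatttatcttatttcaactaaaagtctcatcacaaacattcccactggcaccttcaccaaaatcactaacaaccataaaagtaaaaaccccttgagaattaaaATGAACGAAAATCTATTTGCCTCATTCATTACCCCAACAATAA
mt-Atp6, first 60 bases, chrM:7927-7986, + strand: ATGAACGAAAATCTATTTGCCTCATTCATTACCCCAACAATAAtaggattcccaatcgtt
mt-Nd4l, last 30 bases, chrM:10144-10173, + strand: gtccaaaatctcaacctactacaATGCTAA
mt-Nd5, last 30 bases, chrM:13536-13565, + strand: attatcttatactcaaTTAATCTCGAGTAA
mt-Nd6, last 30 bases, chrM:13552-13581, - strand: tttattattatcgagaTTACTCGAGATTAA
mt-Co1, last 30 bases, chrM:6843-6872, + strand: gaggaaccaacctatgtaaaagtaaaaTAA
mt-Co3, last 30 bases, chrM:9361-9390, + strand: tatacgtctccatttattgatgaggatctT
mt-Nd4, last 30 bases, chrM:11515-11544, + strand: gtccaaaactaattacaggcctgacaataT
mt-Cytb, last 30 bases, chrM:15259-15288, + strand: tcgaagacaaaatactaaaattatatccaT

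Facts of the whole table bear on these values in 3 ways. In each library the highest member, mt-Co1, rested on an estimated 1009910 to 2564180 reads and the lowest, mt-Nd6, on 817 to 3956. No libraries were identical, and the skeletal muscle markers summed to 86331 to 144314 TPM in every library. The 5 melanocyte markers reached at most 1.59 TPM in sum, and 0 of them passed the filter. Nuclear copies of mitochondrial DNA can take reads from the members: 7 nuclear genes shared at least 50% of their 31-base words with mitochondrial genes, and all 7 were listed at 0 in every library.

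The 13 protein genes together held between 19.7% and 42.3% of all TPM in a library, with a median of 33.0%. Weighted by transcript length, which is nearer to a share of reads, the range was 6.69% to 17.9% and the median 13.6%. Whether the RNA classes listed at 0 were set aside before TPM was computed is unknown here, and the share is of the TPM that remained. At 8 weeks the share in CAC muscle ran from a lowest of 20.8% through a median of 23.3% to a highest of 31.05% (n = 7), against 34.2%, 33.2%, 26.8%, 33.0% and 34.0% in the 5 NCAC libraries and 35.9%, 28.6%, 33.0%, 35.9% and 34.2% in the 5 Con libraries. The groups overlapped only through CAC replicate 1, the highest CAC library, and the lowest library of each other group: 6 of 7 CAC libraries lay below every Con and every NCAC library. At 6 weeks the CAC libraries held 19.7%, 23.3%, 25.8%, 25.0% and 30.7%, the NCAC libraries 32.0%, 35.3%, 42.3%, 37.0% and 37.0%, and the Con libraries 32.1%, 32.0%, 35.5%, 35.7% and 29.99%. All 5 CAC libraries were then below all NCAC libraries, and 4 of 5 were below all Con libraries. In bulk tissue, fewer cells of a type and less RNA per cell cannot be told apart, and a share falls also when other RNA rises.

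Over time the mean share in CAC muscle was 32.6% ± 2.12, 28.6% ± 2.85, 24.9% ± 4.00 and 24.2% ± 3.53 at 2, 4, 6 and 8 weeks (SD, n = 5, 5, 5 and 7). In NCAC muscle it was 36.4% ± 1.33, 33.2% ± 2.495, 36.7% ± 3.73 and 32.2% ± 3.08 (SD, n = 5 each). In Con muscle it was 34.1% ± 0.820, 33.1% ± 2.85, 33.0% ± 2.47 and 33.5% ± 3.02 (SD, n = 5 each). CAC minus Con was -1.53, -4.58, -8.14 and -9.34 percentage points at the 4 times. The 2-week value was -0.81 without CAC replicate 4, the lowest library of that group. The CAC and NCAC libraries already did not overlap at 2 weeks, with CAC between 29.7% and 34.3% and NCAC between 34.6% and 37.9%, while the NCAC mean then stood 2.30 points above Con. NCAC minus Con was 0.08, 3.70 and -1.26 points at 4, 6 and 8 weeks. It took either sign at 4 weeks as single libraries were left out, and at 6 and 8 weeks it was 2.30 and 0.10 without NCAC replicate 3 of that week. At 8 weeks it was also -0.64, -2.49 and -0.67 without Con replicates 1, 2 and 4. These shares are sums over the members and carry no test; the tests follow gene by gene.

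**Figure D1:**
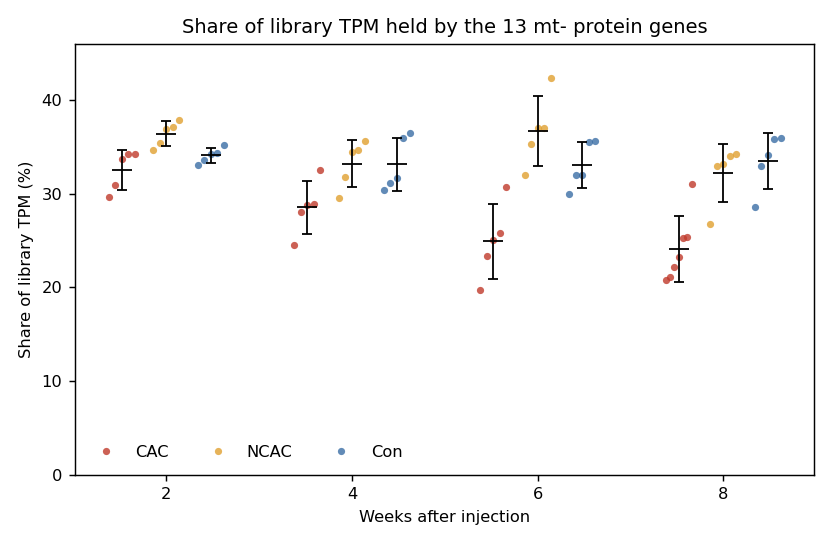
Share of library TPM (%) held by the 13 mitochondrial protein genes against weeks after injection, with 1 dot per library and black bars for the mean and SD of each group. The CAC means step down over the weeks to 24.2% at 8 weeks, while the NCAC and Con means stay between 32.2% and 36.7%.

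The levels of the members spanned a wide range in every arm. In Con muscle mt-Co1, the catalytic subunit of cytochrome c oxidase (complex IV), was highest at 70067 ± 3788 TPM (SD, n = 20 over the 4 times). mt-Co3 and mt-Co2, the other mitochondrial subunits of that enzyme, followed at 48197 ± 2953 and 46502 ± 2828 TPM. mt-Co3 was above mt-Co2 in 19 of 20 Con libraries, although the means differed by less than their SD. mt-Co2 was above mt-Atp6 (38662 ± 3179 TPM), the proton channel subunit of ATP synthase, in all 20. mt-Cytb, the only mitochondrial subunit of complex III, was at 27751 ± 1254 TPM and mt-Nd1 of complex I at 23269 ± 1760 TPM. The next 4, mt-Nd4, mt-Atp8, mt-Nd2 and mt-Nd4l, had Con means from 15104 to 17345 TPM and changed places between libraries: mt-Nd2 was above mt-Nd4l in 10 of 20 Con libraries. mt-Nd3 was above mt-Nd5 in 16 of 20 Con libraries, at 8653 ± 1441 and 7885 ± 966 TPM.

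mt-Nd6 was by far the lowest, at 215 ± 45.3 TPM in Con. It encodes a complex I subunit, lies alone on the opposite strand, and is known from human cells to make an mRNA without a poly(A) tail. In CAC muscle at 8 weeks complex I subunits made up 26.3% ± 0.572 of the members' summed TPM, complex III 8.22% ± 0.250, complex IV 47.6% ± 2.15 and complex V 17.9% ± 1.91 (SD, n = 7). In Con muscle the same parts were 25.9% ± 0.935, 8.23% ± 0.522, 49.4% ± 1.52 and 16.4% ± 1.33 (SD, n = 5). At 8 weeks the parts differed between CAC and Con by less than the larger of the 2 SDs for each complex. This did not hold at every week. The complex V part at 6 weeks was 19.3%, 18.0%, 19.1%, 16.6% and 18.6% in CAC, against 16.5%, 15.4%, 18.2%, 15.7% and 12.5% in Con. There, and for each complex at 2 weeks, the means differed by more than the larger SD, which was not tested.

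**Figure D2:**
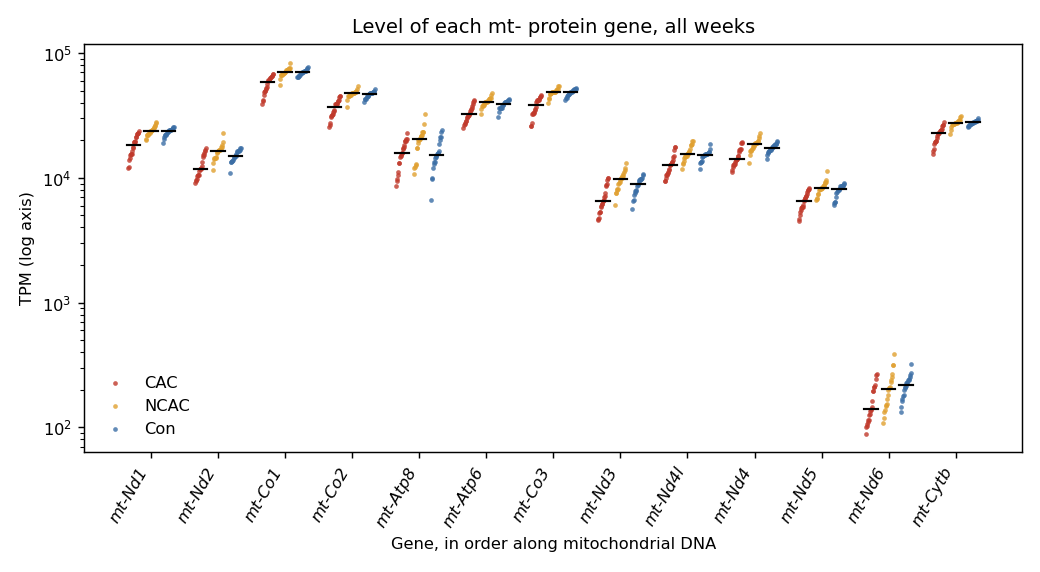
TPM (log axis) of the 13 mitochondrial protein genes in gene order along the mitochondrial DNA, with 1 dot per library of all weeks and a black line at each arm's median. mt-Co1 is highest and mt-Nd6 lowest in every arm, and the widest scatter is that of mt-Atp8 and mt-Nd6.

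Replicates of 1 group differed least for mt-Cytb, with an SD of 0.13 on the log2 scale pooled over the 12 groups, and most for mt-Atp8 (0.41) and mt-Nd6 (0.34). When each library's mean over the members was taken out, that SD was 0.05 for mt-Nd4, against 0.15 before, and 0.09 for mt-Co1, against 0.14 before. Much of the scatter between replicates was thus shared by the members. For mt-Atp8 and mt-Nd6 it stayed at 0.31 and 0.25.

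The comparison of cachectic with mock-injected muscle asks how the members move as the disease develops. Changes are log2 differences of TPM + 1 from limma, a linear model fitted to all 12364 genes that passed the filter in all 62 libraries, with Benjamini-Hochberg adjustment over those genes and a threshold of 0.05. At 8 weeks 12 of 13 members fell in CAC against Con, and 0 rose. Of all genes tested, 5.55% were called lower and 65.3% higher. The median change of the members was -0.50, and that of all genes tested 0.36. TPM has the same total in each library, so a lower share of the members by itself raises the TPM of all other genes. The shares of genes called and the median of all genes are thus not independent of the members. How much of the 0.36 came from this was not tested. At 6 weeks 12 of 13 fell and 0 rose, against 5.41% of all genes lower and 51.8% higher, with medians of -0.47 for the members and 0.28 for all genes.

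Fewer members were called at the earlier times. At 2 weeks 0 of 13 members were called in either direction by limma, 0 had an unadjusted p under 0.05 (13.3% of all genes did), and the median was -0.04. Of all genes, 0.0162% were called lower and 0.267% higher. At 4 weeks 4 members fell, mt-Co2, mt-Co3, mt-Cytb and mt-Nd1, while 2.38% of all genes were called lower and 23% higher. The members' median was then -0.24, and 9 of 13 had an unadjusted p under 0.05, against 40.1% of all genes. The count at 4 weeks depended on single libraries: it was 0 without CAC replicate 2, the lowest CAC library of that week at a share of 24.5%, 8 without CAC replicate 1, 2 without Con replicate 2 or Con replicate 3, and 1 without Con replicate 4.

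The median of all tested genes was above 0 in CAC against Con. Median-ratio scaling, which sets it near 0, moved that median by -0.34 at 8 weeks, -0.27 at 6 weeks and -0.16 at 4 weeks. On that scale 13 members fell at 8 weeks, 12 at 6 weeks and 8 at 4 weeks, with medians of -0.91, -0.80 and -0.45. With the nuclear genes set to the same total in every library, 12 fell at 8 weeks and 12 at 6 weeks, with medians of -0.69 and -0.64, and 2 at 4 weeks, with a median of -0.34. No member changed direction to a call of higher under either scaling. Shares of all genes called lower or higher were not counted on either scale, so these counts have no background beside them.

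**Figure D3:**
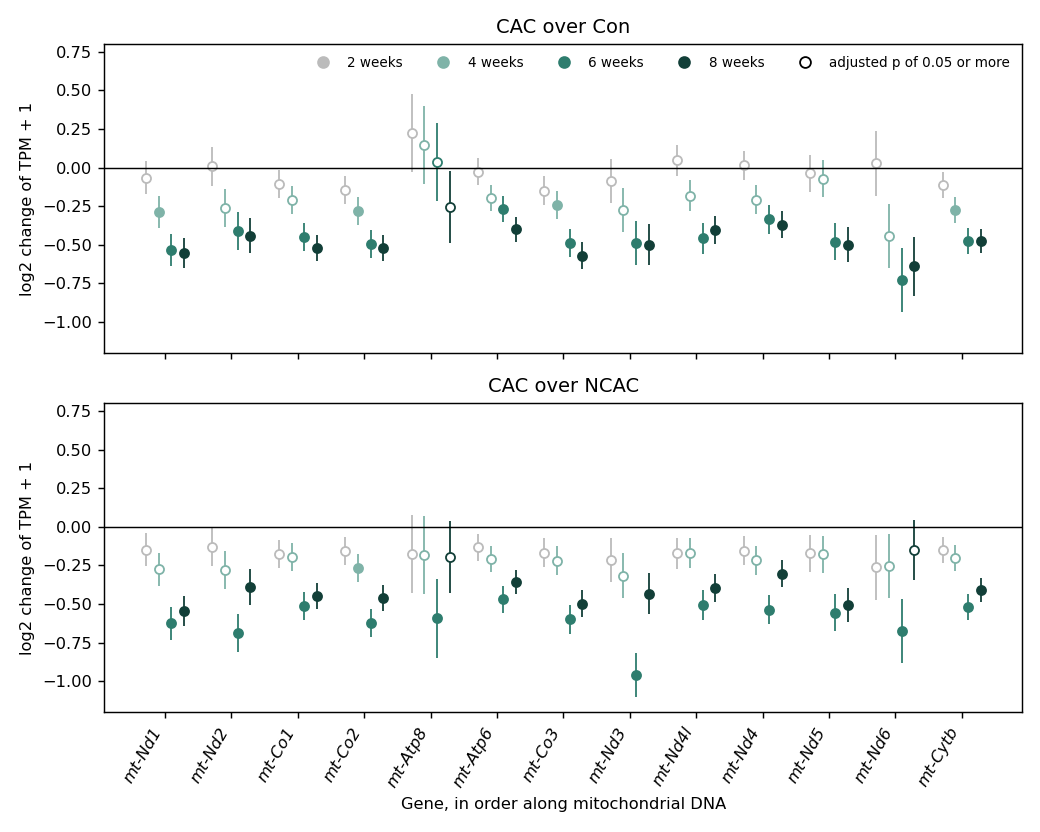
Change of each member (log2 difference of TPM + 1, with SE) in CAC over Con (top) and CAC over NCAC (bottom), at 2, 4, 6 and 8 weeks; filled points passed an adjusted p of 0.05. At 6 and 8 weeks nearly all points are filled and below 0, mt-Atp8 being the member that stays nearest to 0 against Con.

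All 3 complex IV subunits fell at 6 and 8 weeks. mt-Co1 stood at 41062, 48695, 52709, 56869 and 62798 TPM in CAC muscle at 6 weeks, against 64463, 70852, 72160, 77119.7 and 70054 TPM in Con muscle. Every CAC library was below every Con library (log2 change -0.45, SE 0.09, adjusted p = 0.000121). At 8 weeks mt-Co1 had a lowest, median and highest of 39058, 49282 and 65617 TPM in CAC, against 71991, 64969, 69678, 73358 and 70371 TPM in Con. Only CAC replicate 1 reached into the Con range, and the log2 change was -0.52 (SE 0.08, adjusted p = 1.22e-06).

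mt-Co2, which takes up electrons from cytochrome c, was at 25346, 30893, 33891, 32744 and 39330.2 TPM in CAC at 6 weeks, against 42778, 43241, 48471, 49601 and 42501 TPM in Con, with no overlap. Its log2 changes were -0.49 at 6 weeks and -0.52 at 8 weeks (SE 0.09 and 0.08, adjusted p = 3.2e-05 and 1.03e-06). mt-Co3, a structural core subunit, had the lowest adjusted p of the members at 8 weeks (3.52e-07), with a log2 change of -0.57 (SE 0.09). It averaged 33210 ± 5680 TPM in CAC (SD, n = 7) and 48851 ± 3915 TPM in Con (SD, n = 5).

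mt-Cytb, which carries the b-type heme groups of complex III, was the only member whose CAC and Con libraries did not overlap at 8 weeks. CAC then lay wholly below Con for 1.25% of all genes tested. mt-Cytb ran from 16480 through a median of 19736 to 24566 TPM in CAC, against 27046, 25380.0, 27569, 28362 and 28823 TPM in Con. The log2 change was -0.48 (SE 0.08, adjusted p = 1.24e-06). At 6 weeks 5 of 13 members did not overlap between CAC and Con: mt-Co1, mt-Co2, mt-Co3, mt-Nd4l and mt-Cytb. CAC then lay wholly below Con for 2.26% of all genes tested. The earlier weeks had 1 such member each, mt-Co3 at 2 weeks and mt-Co2 at 4 weeks. CAC lay wholly below Con at these 2 times for 0.542% and 1.27% of all genes tested.

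The 7 complex I subunits all fell at 6 and at 8 weeks. mt-Nd1, which lies where the membrane arm meets the arm that takes up NADH, was at 12179, 15163, 17229, 15577 and 21407 TPM in CAC at 6 weeks, against 24099, 22405, 24021, 25515 and 20416 TPM in Con. 1 CAC library, replicate 5, lay above the lowest Con library. Its log2 change was -0.53 at 6 weeks and -0.55 at 8 weeks (SE 0.11 and 0.10, adjusted p = 8.4e-05 and 4.72e-06). The proton-pumping subunits moved by similar amounts at 8 weeks: mt-Nd2 by -0.44, mt-Nd4 by -0.37 and mt-Nd5 by -0.50, with adjusted p = 0.000772, 0.00027 and 0.00012.

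The small subunits mt-Nd3 and mt-Nd4l changed by -0.50 and -0.40 at 8 weeks, with adjusted p = 0.000967 and 0.000177. mt-Nd6 had the largest fitted change of the members at both times, -0.73 at 6 weeks and -0.64 at 8 weeks, with the second largest SE (0.21 and 0.19; adjusted p = 0.00322 and 0.00311). Its CAC libraries at 6 weeks were at 125, 146, 107, 110.5 and 127 TPM, against 169, 319, 198, 243 and 133 TPM in Con. They overlapped through 1 CAC library above the lowest Con library.

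Of the 2 ATP synthase members, mt-Atp6 fell and mt-Atp8 did not pass the test. mt-Atp6 averaged 29474 ± 2976 TPM in CAC (SD, n = 7) and 38870.3 ± 3387 TPM in the 5 Con libraries (SD) at 8 weeks, a log2 change of -0.40 (SE 0.08, adjusted p = 2.11e-05). At 6 weeks its change was -0.27 (SE 0.08, adjusted p = 0.00725), but leaving out CAC replicate 1 ended that call at an adjusted p of 0.0614. mt-Atp8, a small subunit of the membrane part, had 13132, 13258, 17766, 9838 and 19822 TPM in CAC at 6 weeks, against 16487, 13353, 23986, 15092 and 6690.5 TPM in Con. The groups lay across each other, with a log2 change of 0.04 at 6 weeks and -0.25 at 8 weeks (SE 0.25 and 0.23, adjusted p = 0.914 and 0.332). On the median-ratio scale its 8-week change was -0.67 and passed the threshold (adjusted p = 0.0229).

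The comparison with NCAC sets the 2 kinds of melanoma cells against each other, so that the injection of melanoma cells is shared. The sample descriptions do not say whether each mouse carried a tumour. At 6 weeks all 13 members fell in CAC against NCAC and 0 rose, while 4.64% of all genes were called lower and 64.1% higher, and the members' median was -0.59 against 0.37 for all genes. Without NCAC replicate 3, the library with the highest share of all, the count was 11, as mt-Atp8 (adjusted p = 0.129) and mt-Nd6 (0.0515) were lost. mt-Atp8, at -0.59 with an adjusted p of 0.0351, was also lost without CAC replicates 1, 2 or 4 or NCAC replicates 2, 4 or 5. At 8 weeks 11 of 13 fell and 0 rose, with 4.8% of all genes lower and 67.5% higher, and medians of -0.41 and 0.37. The members not called were mt-Atp8 (-0.20, SE 0.23, adjusted p = 0.455) and mt-Nd6 (-0.15, SE 0.19, adjusted p = 0.483).

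At 4 weeks 1 member, mt-Co2, was called lower against NCAC (-0.27, SE 0.09, adjusted p = 0.0354) and 0 were called higher, with 1.59% of all genes lower and 18.1% higher; 9 of 13 members and 38.8% of all genes had an unadjusted p under 0.05. The count of members called was 8 without CAC replicate 1, 4 without NCAC replicate 2, and 0 without CAC replicate 2 or NCAC replicates 1, 3 or 4. At 2 weeks limma called 0 members and gave 0 an unadjusted p under 0.05 (19.3% of all genes had one), although all 13 fitted changes were negative, from -0.26 to -0.13. The background at 2 weeks was 0.0162% lower and 1.16% higher. Median-ratio scaling moved the median of all tested genes by -0.36 at both 6 and 8 weeks. On that scale 13 members were called lower at each of these weeks, with members' medians of -1.04 and -0.85, and 6 at 4 weeks. The shares of all genes called on that scale were not counted.

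mt-Nd3 had the largest gap between the 2 tumour groups. At 6 weeks it was at 4578, 5331, 6189, 4695 and 7101 TPM in CAC, against 8127, 10012, 13253, 12042 and 10814 TPM in NCAC. No library overlapped, and the log2 change was -0.96 (SE 0.14, adjusted p = 4.23e-07). Against Con at the same time mt-Nd3 changed by -0.49 (SE 0.14, adjusted p = 0.004), the Con libraries lying at 7618, 6602, 9748, 8609 and 6482 TPM. CAC libraries enter both comparisons, so these are not independent. In all, 8 of 13 members did not overlap between CAC and NCAC at 6 weeks, 1 at 8 weeks (mt-Nd1), and 2 at 2 weeks (mt-Co1 and mt-Co3), each with CAC below NCAC. The same held for 2.01%, 0.493% and 0.315% of all genes tested at 6, 8 and 2 weeks.

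Between NCAC and Con muscle limma called 0 of 13 members at 2, 4, 6 and 8 weeks, and 0% of all genes in either direction at each. The members with an unadjusted p under 0.05 numbered 1, 0, 5 and 1 at the 4 times, against 3.81%, 1.81%, 7.35% and 1.12% of all genes tested. The median change of the members was 0.13, -0.01, 0.11 and -0.06, while that of all genes was between -0.10 and 0. The 5 at 6 weeks were mt-Nd2, mt-Nd3, mt-Nd4, mt-Atp6 and mt-Atp8, all with higher means in NCAC. The highest fitted change was 0.63, that of mt-Atp8, at 22629 ± 7227 TPM in NCAC and 15122 ± 6218 TPM in Con (SD, n = 5 each).

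Whether the difference itself changed over the weeks was tested with limma's F test over the 4 times. For CAC against Con 4 of 13 members were called, mt-Nd4l (adjusted p = 0.0317), mt-Nd1 (0.0404), mt-Co3 (0.0435) and mt-Co1 (0.0449), against 12.1% of all genes. mt-Cytb and mt-Nd5 missed the threshold at 0.0543 and 0.0507. The count moved by over 1.5 times with 29 libraries left out in turn, between 0 (without CAC 2 weeks replicate 1, for example) and 9 (without CAC 6 weeks replicate 5 or CAC 8 weeks replicate 1). The difference of NCAC from Con changed over the weeks for 0 members (0% of all genes), and Con muscle itself changed for 0 members (0.59% of all genes); limma gave 0 members an unadjusted p under 0.05 in either test.

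Within the mitochondrial genome, the members could also move apart from each other. A fit of each gene relative to its library's mean over the 13 members, in which the members lie near 0 by construction, gave few calls. Against Con, 2 members were called at 6 weeks, mt-Atp8 at 0.46 (SE 0.19, adjusted p = 0.0211) and mt-Atp6 at 0.16 (SE 0.05, adjusted p = 0.0049), where 86.3% of all genes were called. At 8 weeks 1 was, mt-Nd4 at 0.10 (SE 0.05, adjusted p = 0.0443), where 91.1% of all genes were. Against NCAC, mt-Nd3 was at -0.36 (SE 0.08, adjusted p = 4.07e-05) and mt-Atp6 at 0.13 (SE 0.05, adjusted p = 0.0165) at 6 weeks, with 93.8% of all genes called. At 8 weeks mt-Nd1 was at -0.15 (SE 0.06, adjusted p = 0.0239), with 89.3% of all genes called. Of these calls, that of mt-Nd3 was farthest from the threshold, followed by that of mt-Atp6 against Con at 6 weeks. The others had an adjusted p between 0.0165 and 0.0443. Because most genes were called in these fits, the adjustment changed the p-values little. For mt-Nd4 against Con at 8 weeks the unadjusted p by limma was 0.0402. The calls are thus close to calls at an unadjusted p under 0.05.

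Several of these counts rested on single libraries. Against Con at 6 weeks the count was 1 without CAC replicate 3. Against Con at 8 weeks it was 0 without CAC replicates 4, 6 or 7 or Con replicates 2, 3, 4 or 5, and 2 without CAC replicates 1 or 5. Against NCAC it was 1 at 6 weeks without CAC replicate 4 or NCAC replicate 3. At 8 weeks it was 0 without CAC replicate 6 or NCAC replicates 3 or 4, and 2 without CAC replicates 1 or 5.

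The ratio of the overlapping pair mt-Atp8 and mt-Atp6 varied widely between replicates. It ranged from 0.218 in Con at 6 weeks, replicate 5, to 0.679 in NCAC at 6 weeks, replicate 3. At 6 weeks it averaged 0.479 ± 0.101 in CAC, 0.524 ± 0.129 in NCAC and 0.400 ± 0.136 in Con (SD, n = 5 each), and at 8 weeks 0.457 ± 0.111 in CAC (n = 7), 0.410 ± 0.114 in NCAC and 0.414 ± 0.114 in Con (n = 5 each). At 6 and 8 weeks the arms differed by no more than the larger of these SDs. At 2 and 4 weeks the means of both tumour arms lay above Con by more than the larger SD. Over all weeks the ratio averaged 0.473 ± 0.087 in CAC (n = 22), 0.476 ± 0.102 in NCAC and 0.401 ± 0.096 in Con (SD, n = 20 each). These gaps were not tested. The sources used here do not say how reads over the 43 shared bases were assigned. The pair mt-Nd4l and mt-Nd4 was steadier, at 0.831 ± 0.0716 in CAC, 0.884 ± 0.0403 in NCAC and 0.852 ± 0.0960 in Con at 8 weeks (SD).

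mt-Nd6 is the one member read from the other strand, so it was set against mt-Nd5, whose end it overlaps. The mt-Nd6 to mt-Nd5 ratio at 2 and 8 weeks was 0.0301 ± 0.00297 and 0.0222 ± 0.00487 in CAC, 0.0320 ± 0.00295 and 0.0171 ± 0.00109 in NCAC, and 0.0288 ± 0.00389 and 0.0243 ± 0.00393 in Con (SD). Its mean was lower at 8 than at 2 weeks in each arm, by about 1 SD in Con, which is a description without a test. In NCAC at 8 weeks mt-Nd6 was at 138, 134, 108, 149.7 and 155 TPM, close to the CAC median of 114 TPM, and below Con at 212, 163, 227, 179.6 and 181 TPM with no overlap. This was the only such member in NCAC against Con at 8 weeks, where NCAC lay wholly below Con for 0.17% of all genes tested. Its log2 change was -0.49 (SE 0.21), which had an unadjusted p under 0.05 by limma and did not pass adjustment. Without the counting's strand setting, RNA of the opposite strand cannot be told apart from mt-Nd6.

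**Figure D4:**
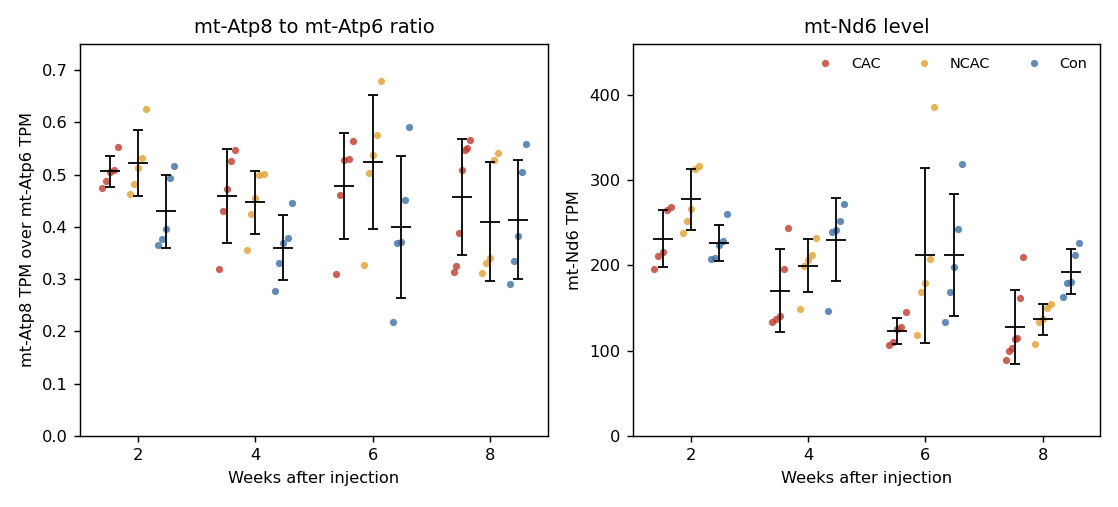
Ratio of mt-Atp8 to mt-Atp6 TPM (left) and TPM of mt-Nd6 (right) against weeks after injection, with 1 dot per library and black bars for the mean and SD. The ratios of the 3 arms lie across each other, between 0.218 and 0.679, while mt-Nd6 in CAC at 6 weeks sits between 107 and 146 TPM, and at 8 weeks every NCAC library lies below every Con library.

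Most nuclear genes for subunits of the same complexes were lower too. Of the nuclear complex I subunits tested, 27 of 36 were lower and 2 higher in CAC against Con at 8 weeks (median -0.27, against -0.50 for the mitochondrial members). Ndufs1, an iron-sulfur subunit, averaged 127 ± 24.5 TPM in CAC muscle, against 219 ± 11.7 TPM in Con muscle (log2 change -0.79, SE 0.10, adjusted p = 1.39e-08). All 9 complex III subunits were lower (median -0.31), among them Uqcrc1, a core protein, at -0.64 (adjusted p = 8.48e-08). In complex IV 9 of 13 were lower and 1 higher (median -0.19). Cox7a1, the heart and muscle form of its subunit, changed by -0.95, and Cox8a, the form found in most tissues, by 0.70 (adjusted p = 4.96e-07 and 2.95e-07).

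In ATP synthase 14 of 18 nuclear subunits were lower and 2 higher (median -0.31). All 4 subunits of complex II, which has no mitochondrially encoded part, were lower (median -0.42), Sdhb at -0.52 (adjusted p = 1.81e-06). These counts stand beside a background of 5.55% lower and 65.3% higher.

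The 2 sets can be set side by side over time. At 2 weeks the nuclear subunits of complex I had a median of -0.22 in CAC against Con, with 1 of 36 called lower against 0.0162% of all genes, while the mitochondrial members' median was -0.04. At 4 weeks 22 of 36 nuclear complex I, 6 of 9 complex III, 6 of 13 complex IV and 12 of 18 complex V subunits were lower, and 4 of 13 mitochondrial members, against 2.38% of all genes. The mean log2 level of the mitochondrial minus the nuclear subunits of complex IV was 6.37 ± 0.05 in CAC at 2 weeks, against 6.43 ± 0.08 in NCAC and 6.28 ± 0.11 in Con. At 8 weeks it was 5.95 ± 0.17 in CAC, 6.29 ± 0.15 in NCAC and 6.33 ± 0.17 in Con (SD). For complex I it was 4.99 ± 0.06 in CAC, 5.08 ± 0.08 in NCAC and 4.80 ± 0.13 in Con at 2 weeks, and 4.46 ± 0.22 in CAC, 4.64 ± 0.19 in NCAC and 4.71 ± 0.26 in Con at 8 weeks. A scaling of the whole library leaves this balance nearly as it is. At 2 weeks it was higher in both tumour arms than in Con for all complexes. The gap was more than the SDs for complexes I, III and V in both arms, and for complex IV in NCAC only. For complex III it was then 5.61 ± 0.06 in CAC, 5.65 ± 0.07 in NCAC and 5.49 ± 0.11 in Con. For complex V it was 5.98 ± 0.06, 6.06 ± 0.10 and 5.70 ± 0.20 in the same order. At 6 weeks it was lower in CAC than in NCAC and Con by more than the larger SD in complexes I, III and IV. For complex I it was then 4.45 ± 0.21 in CAC, 4.91 ± 0.32 in NCAC and 4.74 ± 0.19 in Con. For complex III it was 5.34 ± 0.19, 5.58 ± 0.14 and 5.54 ± 0.07 in the same order, and for complex IV 5.97 ± 0.20, 6.41 ± 0.15 and 6.29 ± 0.10. In complex V CAC (5.59 ± 0.27) lay below NCAC (5.98 ± 0.34) but not below Con (5.54 ± 0.46). At 8 weeks the balance was lower in CAC than in NCAC and Con for all complexes, but by more than the SDs only for complex IV. For complex III it was then 5.375 ± 0.14 in CAC, 5.48 ± 0.10 in NCAC and 5.50 ± 0.16 in Con. For complex V it was 5.54 ± 0.31 in CAC, 5.64 ± 0.33 in NCAC and 5.63 ± 0.38 in Con (SD). In complexes I, III and V these gaps were no more than the larger SD.

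**Figure D5:**
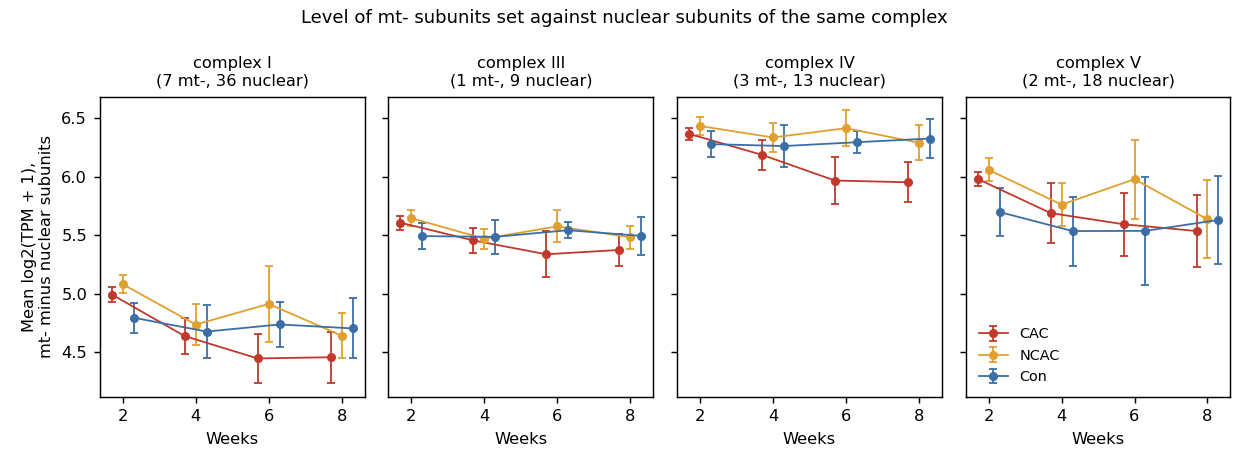
Mean log2(TPM + 1) of the mitochondrial minus the nuclear subunits of each complex against weeks after injection, with points for group means and bars for the SD over libraries. In complex IV the CAC line ends at 5.95 at 8 weeks, below NCAC at 6.29 and Con at 6.33.

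Nuclear genes that transcribe, process and translate the mitochondrial genome gave more mixed counts on the TPM scale. In CAC against Con at 8 weeks, where 5.55% of all genes were lower and 65.3% higher, 1 of 9 tested genes of mitochondrial transcription was lower and 5 higher. Mterf2, a member of the mitochondrial termination factor family, was the lower one at -0.72 (SE 0.18, adjusted p = 0.000336). Of 22 genes of mitochondrial RNA processing and stability 0 were lower and 10 higher, and of 14 of mitochondrial DNA maintenance 1 was lower and 8 higher, among them Tk2, a mitochondrial nucleoside kinase, at 0.68, and Polg, the mitochondrial DNA polymerase, at 0.53. Of 13 genes of RNA modification 0 were lower and 4 higher, and of 12 translation factors 5 were lower and 2 higher. Taco1, which aids the translation of mt-Co1 mRNA, changed by -0.78 (SE 0.13, adjusted p = 2.72e-06).

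Most of the higher calls in these lists did not pass after median-ratio scaling. On that scale transcription had 3 lower and 0 higher, processing 10 lower and 0 higher, RNA modification 6 lower and 0 higher, DNA maintenance 7 lower and 1 higher, translation factors 11 lower and 0 higher, and the 22 genes of aminoacyl-tRNA synthesis 17 lower and 0 higher, against 2 lower and 3 higher on the TPM scale. With the nuclear genes set to the same total some higher calls stayed: transcription had 3 lower and 2 higher, processing 7 lower and 4 higher, RNA modification 1 lower and 1 higher, DNA maintenance 3 lower and 5 higher, translation factors 7 lower and 1 higher, and aminoacyl-tRNA synthesis 5 lower and 2 higher. The falls of Mterf2 and Taco1 passed on both scales. Shares of all genes called were not counted after either scaling, so these list counts cannot be judged against a background.

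Markers of other cells in the tissue moved with the same comparisons. All 8 macrophage markers were higher in CAC against Con at 8 weeks, and their sum ran from 165 to 586 TPM in CAC (median 273), 21.1 to 90.2 TPM in NCAC and 47.6 to 177 TPM in Con. Of the fibroblast markers 2 of 4 were higher, of the endothelium markers 3 of 4 with 1 lower, of the smooth muscle markers 2 of 3, of the adipocyte markers 1 of 3 and of the red blood cell markers 0 of 4, beside 65.3% of all genes higher and 5.55% lower. After median-ratio scaling 6 macrophage, 2 fibroblast, 1 endothelium, 0 smooth muscle and 1 adipocyte markers were higher. The share of all genes called higher on that scale was not counted. The 6 skeletal muscle markers summed to 88970.0 to 128765 TPM in CAC, 121284 to 144314 TPM in NCAC and 109342 to 129717 TPM in Con at 8 weeks, with Mylpf and Acta1 lower and Myh1 higher. On the median-ratio scale 4 of the 6 were lower and 0 higher, Myh1 standing at 0.33 (adjusted p = 0.113). Fast fibre myosin Myh4 averaged 11532 ± 2174 TPM in the 7 CAC libraries, against 12499 ± 740.5 TPM in the 5 Con libraries (log2 change -0.14, adjusted p = 0.303 by limma). On the median-ratio scale Myh4 was lower, at -0.55 (adjusted p = 0.00117). Myh7, the slow fibre myosin, averaged 299 ± 44.2 TPM in CAC and 207 ± 70.3 TPM in Con (limma adjusted p = 0.0404, and 0.603 on the median-ratio scale). The part of these cell markers in the members' changes was not tested.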

How the data were processed

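RNA of gastrocnemius muscle was made into poly(A)-selected stranded libraries (TruSeq stranded mRNA), per the labels' protocols, with the genome build mm10 per the submitters' processing notes. The authors deposited TPM values per gene symbol for 62 libraries. The sources used here give no aligner, counting program or strand setting. Groups come from the sample descriptions, since the treatment label names the cachectic cells for every library. The extraction protocol speaks of LLC cells and a single time of 3 weeks, which differs from the melanoma cells and the 4 times in the other labels. The labels call the libraries biological replicates and say no more, so p-values measure the spread between these libraries.

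The members and gene lists were chosen with earlier results of these data known. Every member is reported, and of each nuclear list the counts and genes among the 3 of lowest p in CAC against Con at 8 weeks. TPM does not keep read counts: depth was estimated from the steps between low values multiplied by GENCODE transcript length, where 78.0% to 79.7% of values in a library came within 0.02 of whole reads, so no count test was run. limma 3.58.1 in R 4.3.3 was fitted to log2(TPM + 1) with a mean for each of 12 groups and a variance trend, for genes with at least 1 TPM in at least 5 libraries, two-sided, and the scripts were tested on simulated data. A log2 change on this scale understates that of low genes. Other settings tried were a 0.1 pseudocount, all genes unfiltered, a filter at 5 TPM, median-ratio scaling, nuclear genes scaled to the same total, array weights, only the 2 groups compared, a replicate block, and each library left out in turn. Sequences are GENCODE M21 transcripts. Amino acid sequences were not used here.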

Additional observations from a re-analysis of the deposited data

Results flagged for a closer look

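The share and each of the 13 members were examined in each of the 12 groups, of 5 to 7 libraries, for a library far from the others. Of these 168 sets of values 13 held one. Chance gives about 1 in 20 for independent sets. These sets use the same libraries, and the members share much of their scatter, so the count does not measure an excess. NCAC 8 weeks replicate 3 was the low library in 7 of the 13. Its share of library TPM was 26.8%, against 33.0% to 34.2% in the other 4. It had 20442 TPM of mt-Nd1, 37024 of mt-Co2, 39488 of mt-Co3, 11678 of mt-Nd4l, 6717 of mt-Nd5 and 22596 of mt-Cytb. CAC 8 weeks replicate 1 was high for mt-Nd2, at 15292 TPM against 9403 to 11740 in the other 6, and for mt-Nd5, at 7707 TPM against 4635 to 5815. CAC 4 weeks replicate 2 was low for mt-Co1 at 51694 TPM. Con 8 weeks replicate 2 was low for mt-Co2 at 40368 TPM, Con 2 weeks replicate 2 for mt-Nd5 at 6448 TPM, and Con 4 weeks replicate 1 for mt-Nd6 at 146 TPM.

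The difference of CAC from Con changed over the weeks for 4 members by limma's F test: mt-Nd1 (adjusted p = 0.0404), mt-Co1 (0.0449), mt-Co3 (0.0435) and mt-Nd4l (0.0317). Why these libraries and members stand out was not tested.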

How the results depend on the processing

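At 6 and 8 weeks the counts of members called in CAC against Con and against NCAC stayed within 1.5 times under every alternative run, and no member's change was called in the opposite direction. At 4 weeks the count against Con (4) was 0 without a filter and with only the 2 groups compared, 2 with the nuclear total set equal, and 8 with median-ratio scaling or array weights. Against NCAC (1) it was 0 without a filter, with the nuclear total set equal and with only the 2 groups compared, 2 at the 5 TPM filter, 6 with median-ratio scaling and 9 with array weights. Members called relative to the mitochondrial mean numbered 1 with only the 2 groups compared at 6 weeks against Con and against NCAC; at 8 weeks they numbered 0 with only the 2 groups, and 2 when the summed members were subtracted, in both. Members whose CAC against Con difference changed over the weeks (4) numbered 0 without a filter and with the nuclear total set equal, 8 with median-ratio scaling and 11 with array weights. Weighted by length, which is nearer to a share of reads, the share differences were -5.12 points for CAC minus Con at 8 weeks, and -6.44 and -4.48 for CAC minus NCAC at 6 and 8 weeks. The cause of these shifts was not tested.

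With single libraries left out, the 4-week counts ran from 0 to 8 against Con and from 0 to 8 against NCAC, and the over-weeks count from 0 to 9. The counts relative to the mitochondrial mean ran from 0 to 1 at 4 weeks, 1 to 3 at 6 weeks and 0 to 2 at 8 weeks against Con, and from 1 to 2 and 0 to 2 at 6 and 8 weeks against NCAC. Same-numbered libraries gave no clear sign of deviating together: the correlations of their deviations ran from -0.34 to 0.32, and in no comparison were all above 0.1. With only 5 pairs per comparison this cannot exclude that the numbers pair the libraries. With the replicate block 2 members were called against NCAC at 4 weeks, 0 changed over the weeks and 0 were called relative to the mean against Con at 8 weeks. Depth limits mt-Nd6 most, at 817 reads or more.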
